A study of Macaca fascicularis with 28 samples.

Results

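Claudin expression was measured in laser-captured taste buds and lingual epithelium (LE) of cynomolgus macaques (Macaca fascicularis). The probe sets were taken that carry the symbol CLDN1, CLDN3, CLDN4, CLDN5, CLDN7, CLDN8, CLDN10, CLDN12, CLDN17 or CLDN23, by the study's taste bud gene table where it names them and otherwise by the array annotation. This rule found 8 of the 10 genes, among 14873 named on the array, and 11 of its 52024 probe sets. CLDN12 and CLDN17 have no probe set under these names in the sources used here and were not analysed here. CLDN1, CLDN3 and CLDN4 have 2 probe sets each. Only the probe set of CLDN5 takes its name from the study's table, which was chosen on these same samples, so that its direction is not independent of that choice.

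Claudins are tetraspan membrane proteins that form the strands of tight junctions, the seals between neighbouring epithelial cells near their apical ends. Some members tighten the paracellular route and others form pores that let selected ions pass, and an epithelium's permeability follows from the mix it expresses. In taste buds, tight junctions lie around the taste pore, where they separate the apical membranes of the receptor cells, which meet saliva, from the basolateral side, while the stratified LE around the buds is sealed in its upper layers.

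The 28 samples fall into 6 groups, each 1 array per animal. Circumvallate (CV) taste buds and LE adjacent to CV papillae (CV LE) came from the same 4 animals (2 males, 2 females). Fungiform (FG) taste buds and LE adjacent to FG papillae (FG LE) came from 6 animals (2 males, 4 females), which include those 4. The top and the bottom portions of CV taste buds came from 4 other animals aged 3.0 years (1 male, 3 females) and form a second array set. The animals of the first set were 2.6 to 4.5 years old. The labels name no treatment, so that the groups differ by tissue, and tissue was taken post-mortem. Each sample pools cells cut from many sections, and fewer cells of a type cannot be told apart from less RNA per cell.

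The deposited values are linear GC-RMA intensities in arbitrary units, and 25 units, the study's minimum, was taken as the level below which a signal counts as dim. Between 37.3% and 40.8% of probe sets reached it on an array. The labels were checked against marker genes. Of 10 markers of type II taste cells, 8 were higher in CV buds and 10 in FG buds than in the adjacent LE. Of 14 markers of differentiated keratinocytes 12 and 13 were lower. Over all probe sets tested 17.3% and 21.1% were higher, and 18.0% and 20.2% lower. Of 7 type III markers tested 6 were higher at each site. A type I list held ENTPD2, SLC1A3, KCNJ1, GLDN, OTOP1 and SCNN1A, not all of them particular to type I cells. Of 3 tested, 1 was higher and 1 lower in CV buds, and 2 were lower in FG buds. Of 7 basal keratinocyte markers 6 were higher in CV buds, and 5 were higher and 1 lower in FG buds. Whether the layers captured bear on the claudin changes was not tested. Arrays correlated with the other arrays of their group at a mean of 0.804 (FG LE of animal 3) to 0.951 (top fraction of animal 8). A change was called where limma gave an adjusted p of 0.05 or less, adjusted over all probe sets tested in a comparison.

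Of the claudins listed above, CLDN5 alone was called higher in CV and FG taste buds than in the adjacent LE, and several others were lower. In CV taste buds CLDN1, CLDN4, CLDN7 and CLDN10 were lower than in CV LE, and in FG taste buds CLDN1, CLDN8 and CLDN23 were lower than in FG LE. No claudin was called between CV and FG taste buds, beside 0.871% of all probe sets tested. Between the 2 sites of LE CLDN10 was called, beside 1.26% of all. Of the 11 claudin probe sets, 9 passed the filter of 25 units in at least 4 samples of the first set. Against CV LE, 5 of the 9 were called in CV taste buds, 1 higher and 4 lower, beside 35.3% of all 26176 probe sets tested (17.3% higher and 18.0% lower). Against FG LE, 5 of the 9 were called in FG taste buds, again 1 higher and 4 lower, beside 41.2% of all (21.1% higher and 20.2% lower). The median log2 change of the 9 was -1.24 at the CV site (-0.08 over all probe sets tested) and -0.66 at the FG site (0.05 over all).

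**Figure D1:**
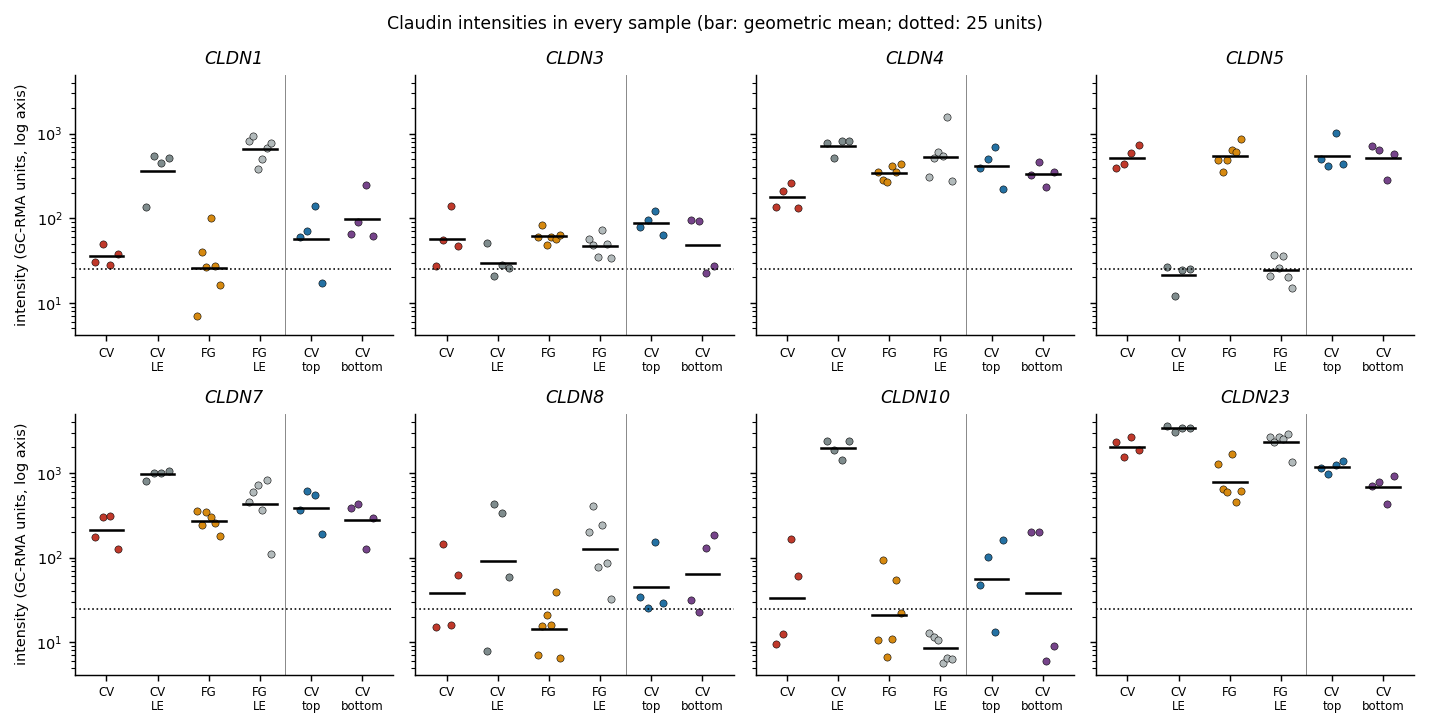
Intensity of the leading probe set of each of 8 claudins in all 28 samples (GC-RMA units, log axis), by group: CV taste buds, CV LE, FG taste buds, FG LE, and the 2 fractions cut from CV buds, a second array set to the right of the grey line. Each point is 1 animal, bars are geometric means and the dotted line marks 25 units; CLDN5 lay at 283.6 or more in every taste bud sample and at 36.4 or less in every LE sample, while CLDN10 lay between 1437 and 2411 in CV LE and at 202 or less in all other samples.

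CLDN5 seals endothelium and is known above all for the tightness of the blood-brain barrier. Its intensity was 396, 435, 584 and 737 in CV taste buds of animals 1, 3, 4 and 5, against 26.7, 12.0, 24.7 and 25.3 in CV LE of the same animals. It ran between 354 and 855 in the 6 FG taste bud samples (median 548), against 15.2 to 36.4 in FG LE (median 23.2). All 10 taste bud samples thus lay far above all 10 LE samples, 5 of which were below 25 units. The difference was at least 20.5-fold in CV taste buds (log2 change 4.63 ± 0.37 SE, adjusted p = 7.61e-07 in limma, higher in 4 of 4 animals). In FG taste buds it was at least 19.3-fold (log2 change 4.49 ± 0.30, adjusted p = 8.68e-08, higher in 6 of 6 animals). The CV and FG effects differed by 0.14 ± 0.48 on the log2 scale (adjusted p = 0.927).

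Since CLDN5 is also an endothelial gene, 20 endothelial genes were read beside it, of which 15 were on the array. Only 4 passed the filter in the first set, and none was higher in CV or FG taste buds. PECAM1, an adhesion molecule of endothelial cells and leukocytes, had log2 changes of 0.78 at the CV site (adjusted p = 0.572) and 1.75 at the FG site (adjusted p = 0.1), and EGFL7 fell in FG taste buds (log2 change -1.07, adjusted p = 0.0119). Their summed intensity ran from 199 to 1164 in CV taste buds, against 250.3 to 488 in CV LE. In FG taste buds it ran from 318 to 1182, against 224 to 1482 in FG LE. The sums of buds and LE overlapped at both sites. Of the 15 genes, 8 were below 25 units in every CV and in every FG taste bud sample. In LE the counts were alike, with 9 below 25 units in every CV LE sample and 8 in every FG LE sample. The part of endothelial cells in the level of CLDN5 was not tested.

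CLDN1 is a barrier claudin of stratified epithelia, and mice without it lose water through the skin. It was lower in whole CV and FG taste buds than in LE. CV taste buds had 30.4, 49.6, 28.4 and 38.2 units in animals 1, 3, 4 and 5, against 136, 538, 447 and 516 in CV LE. FG taste buds had 6.98 to 102 units (median 26.8), against 383 to 948 in FG LE (median 725). The taste bud and LE samples did not overlap at either site, and CLDN1 was lower in the buds of each animal. It was 10.1-fold lower in CV taste buds (log2 change -3.33 ± 0.59, adjusted p = 0.000621) and at least 18.7-fold lower in FG taste buds (log2 change -4.64 ± 0.48, adjusted p = 5.38e-06). The second CLDN1 probe set was dim, with no CV taste bud sample at 25 units. It was lower in FG taste buds too (log2 change -1.76 ± 0.59, adjusted p = 0.0295), although the groups overlapped, and that call was lost without animal 3 or animal 5 and with values below 25 raised to 25. In CV taste buds it changed by -1.07 ± 0.73 (adjusted p = 0.271).

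CLDN4 and CLDN7 are claudins of simple and stratified epithelia. CLDN4 limits sodium passage and, like CLDN3, binds the enterotoxin of Clostridium perfringens, and CLDN7 is also found along the lateral membrane, where it binds EPCAM. CLDN4 had 136, 211, 258 and 134 units in CV taste buds of animals 1, 3, 4 and 5, against 781, 517, 816 and 811 in CV LE. CLDN7 had 177, 302, 314 and 127 units in CV taste buds, against 793, 1003.5, 1003.1 and 1062 in CV LE. Neither gene's CV taste bud samples overlapped those of CV LE. CLDN4 was 4.05-fold lower (log2 change -2.02 ± 0.43, adjusted p = 0.00249) and CLDN7 4.47-fold lower (log2 change -2.16 ± 0.39, adjusted p = 0.000805) in CV taste buds, each in 4 of 4 animals.

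At the FG site the ranges of both genes met those of the LE. CLDN4 ran from 269 to 437 units in FG taste buds (median 351), against 275 to 1571 in FG LE (median 527). CLDN7 ran from 183 to 353 units in FG taste buds (median 282), against 109.7 to 836 in FG LE (median 528). FG LE of animal 6 was the lowest of its group for both genes. The changes were -0.62 ± 0.35 for CLDN4 (adjusted p = 0.169) and -0.66 ± 0.32 for CLDN7 (adjusted p = 0.115), and neither was called. Without animal 6 CLDN7 was called in FG taste buds, and it was also called with all LE samples as 1 group (lowest adjusted p over the alternatives 0.0284). The CV and FG effects differed by -1.40 ± 0.56 for CLDN4 (adjusted p = 0.251) and by -1.50 ± 0.51 for CLDN7 (adjusted p = 0.178), so that a difference between the sites was not called.

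CLDN10 forms ion pores, with isoforms for cations and for anions, and is known from kidney and from sweat and salivary glands. It was the claudin whose level was called different between the LE sites. CV LE had 2355, 1855, 1437 and 2411 units in animals 1, 3, 4 and 5, against 13.0, 10.6, 5.74 and 6.52 in FG LE of these animals. FG LE of animals 2 and 6 had 11.6 and 6.39 units. Every FG LE sample was thus dim and every CV LE sample bright. Since all FG LE values were below 25 units, the size of the difference is a lower bound, at least 78.9-fold with these values raised to 25. With values under 25 so raised the log2 change was 6.41 (adjusted p = 1.33e-05), and on the values as deposited it was 8.14 ± 0.76 (adjusted p = 0.000132), higher in CV LE in 4 of 4 animals. Of 9 claudin probe sets CLDN10 alone was called between the LE sites, beside 1.26% of all probe sets (0.97% higher and 0.294% lower), and 2 had an unadjusted p under 0.05.

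In taste buds CLDN10 was uneven. CV taste buds had 9.56 and 12.4 units in animals 1 and 3 and 167 and 60.5 in animals 4 and 5, and FG taste buds had 6.67 to 93.1 units (median 16.7). Against CV LE, CLDN10 was 39.3-fold lower in CV taste buds (log2 change -5.90 ± 0.79, adjusted p = 6.91e-05, lower in 4 of 4 animals). In FG taste buds it changed by 1.31 ± 0.64 against FG LE (adjusted p = 0.117), higher in 4 of 6 animals. The CV effect minus the FG effect was -7.21 ± 1.02 on the log2 scale (adjusted p = 0.00507), a size that rests on the dim FG LE values, and -5.80 (adjusted p = 0.000623) with values under 25 raised to 25. This was the 1 claudin called in that test, beside 0.871% of all probe sets (0.271% higher and 0.6% lower), and 3 had an unadjusted p under 0.05. On the values as deposited it was not called without animal 3 or without animal 5 (highest adjusted p 0.0645). With all LE samples taken as 1 group, the change of CLDN10 was -1.46 in CV taste buds (adjusted p = 0.578) and -1.65 in FG taste buds.

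**Figure D2:**
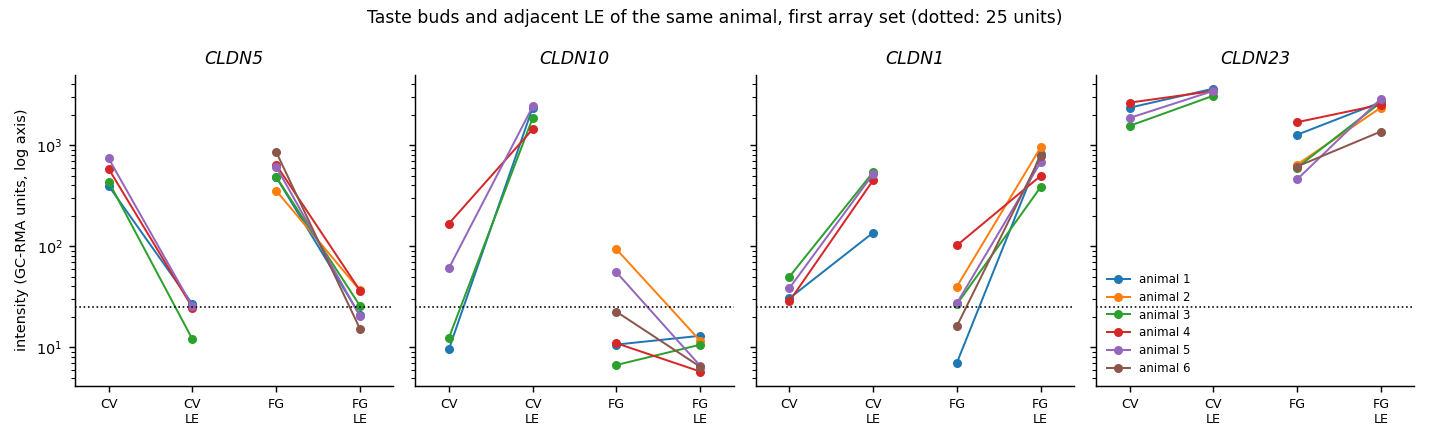
Intensity (GC-RMA units, log axis) of CLDN5, CLDN10, CLDN1 and CLDN23 in taste buds and adjacent LE, with a line joining the samples of 1 animal at 1 site (4 animals at the CV site, 6 at the FG site; dotted line at 25 units). All lines fall to LE for CLDN5 and climb to LE for CLDN1 and CLDN23, while CLDN10 climbs to between 1437 and 2411 in CV LE and lies at 13.0 or less in FG LE.

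Gland genes were read beside CLDN10, since CV papillae lie next to serous glands. Of 16 listed genes of serous and mucous gland cells 9 were on the array, with a summed intensity of 2570 to 8525 in CV LE, against 261 to 3127 in FG LE. The sum was 618.5 to 3353 in CV taste buds. In the top fractions, which come from other animals and the second array set, it was 3190 to 5364. LCN2 had the highest mean there (2485). Of the 6 that passed the filter, only lysozyme (LYZ), also made by leukocytes, was called between the LE sites, with a mean of 2559 in CV LE and 518 in FG LE (log2 change 2.35, adjusted p = 0.0376). LCN2, a secreted lipocalin, had medians of 2173 in CV LE and 51.9 in FG LE but was not called (log2 change 3.39 ± 0.96, adjusted p = 0.0952). The sum in CV LE was mainly that of LYZ and LCN2 (mean 2369), the next highest mean being 40.4 (ZG16B). The leading PIP probe set had medians of 17.4 in CV LE and 10.9 in FG LE, against 149.5 in CV taste buds and 600.1 in the top fractions. Another of the 3 PIP probe sets had medians of 669.9 in CV LE and 180.3 in FG LE. LPO, MUC7 and AQP5, which mark serous or mucous acini, were below 25 units in every sample of every group. They therefore cannot show whether gland cells were present in any of them. Whether gland cells bear on the level of CLDN10 was not tested.

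CLDN23, one of the less studied members, was lower in taste buds at the FG site. FG taste buds had 458 to 1685 units (median 628), against 1363 to 2872 in FG LE (median 2583). It was lower in 6 of 6 animals and 2.99-fold lower over the groups (log2 change -1.58 ± 0.27, adjusted p = 0.000428). The highest FG taste bud value, of animal 4, lay above the FG LE value of animal 6, and this was the only overlap. CV taste buds had 2344, 1549.6, 2633 and 1856 units, against 3618, 3082, 3430.0 and 3439 in CV LE of the same animals. They did not overlap, but the change was -0.72 ± 0.32 and not called (adjusted p = 0.0986).

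CLDN8 is a barrier claudin best known from the distal nephron, where it works with CLDN4. It was scattered in most groups. FG taste buds had 6.49 to 38.9 units (median 15.7), against 32.3 to 407 in FG LE (median 143). The buds of all 6 animals had less CLDN8 than the LE, at least 4.72-fold over the groups (log2 change -3.14 ± 0.78, adjusted p = 0.00583), with 1 of 6 FG taste bud samples at 25 units. CV taste buds had 15.3, 145, 16.2 and 62.2 units in animals 1, 3, 4 and 5, against 7.85, 435, 337 and 59.8 in CV LE. Animals 3 and 4 were lower in CV taste buds and animals 1 and 5 higher, and no change was called (log2 change -1.24 ± 0.95, adjusted p = 0.33).

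CLDN3, a barrier claudin of simple epithelia, stayed low everywhere, between 20.7 and 138 units. CV taste buds had 27.6, 55.7, 138 and 47.2 units in animals 1, 3, 4 and 5, against 51.6, 20.7, 28.3 and 25.8 in CV LE. FG taste buds had 48.5 to 83.3 units (median 59.9), against 34.1 to 72.8 in FG LE (median 48.6). Both pairs of groups overlapped. The change was 0.92 ± 0.40 at the CV site (adjusted p = 0.0917) and 0.36 ± 0.33 at the FG site (adjusted p = 0.408). Animal 1 alone was lower in CV taste buds, and without it CLDN3 was called as higher there (adjusted p = 0.00902). The second probe sets of CLDN3 and CLDN4 did not pass the filter and reached at most 26.3 and 30.3 units in LE.

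**Figure D3:**
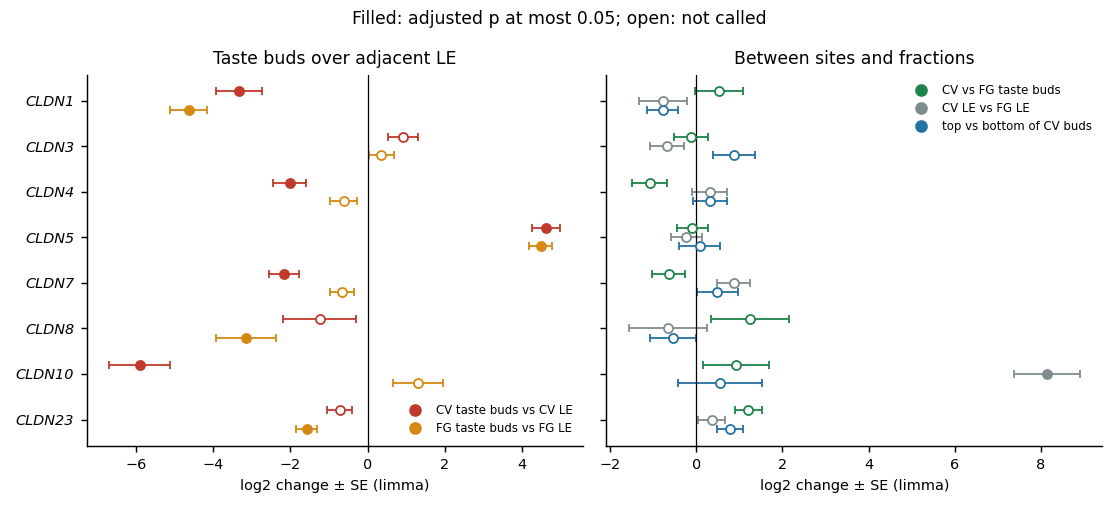
Log2 change with its standard error from limma for the leading probe set of 8 claudins. The left panel shows CV and FG taste buds over their adjacent LE and the right panel CV over FG taste buds, CV LE over FG LE, and top over bottom fractions; filled points were called, and in the right panel only CLDN10 between the LE sites was, at 8.14, a size that rests on FG LE values below 25 units.

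CV taste buds were next set against FG taste buds of the same animals, to ask whether the taste bud types differ. None of 9 claudin probe sets was called, beside 0.871% of all (0.378% higher and 0.493% lower), and 2 had an unadjusted p under 0.05. The test named in the study's methods called none either. CLDN23 had the higher CV value in each of the 4 animals, by 1.56-fold to 4.05-fold within an animal (log2 change 1.21 ± 0.31, adjusted p = 0.0964). It was called with no animal term (lowest adjusted p 0.0389) and with an intensity trend in the variance. CLDN4 had the lower CV value in each of the 4, and its CV values of 134 to 258 did not meet its FG values of 269 to 437 (log2 change -1.08 ± 0.41, adjusted p = 0.304). CLDN5, in contrast, had a change of -0.09 ± 0.36 (adjusted p = 0.964).

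Top and bottom portions of CV buds were compared to ask where in the bud a gene is expressed, the apical tight junctions lying in the top portion. Of the 11 claudin probe sets 8 passed the filter, and none was called, beside 3.14% of the 21167 probe sets tested (1.68% higher and 1.46% lower). Only CLDN23 had an unadjusted p under 0.05. It had 1150.3, 959.7, 1235 and 1397 units in the top and 694, 789.6, 429 and 921 in the bottom fraction of animals 7, 8, 9 and 10. The fractions did not overlap, and the change was 0.78 ± 0.30 (adjusted p = 0.208). CLDN1 was lower in the top fraction of 4 of 4 animals, with 60.8, 71.2, 142 and 17.1 units in the top and 66.0, 90.1, 249 and 61.8 in the bottom. Those ranges overlapped and the change of -0.78 ± 0.35 was not called (adjusted p = 0.278).

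No difference between the fractions was called for CLDN5. It had 501, 411.5, 1023 and 439 units in the top and 716, 637, 284 and 576 in the bottom fraction. Animal 9 alone had the higher value in the top, and the ratio of top to bottom was 0.646 to 0.762 in the other animals (log2 change 0.08 ± 0.47, adjusted p = 0.949, and -0.51 without animal 9). CLDN3 had 78.1, 95.2, 124 and 64.3 units in the top and 94.7, 92.1, 22.5 and 27.1 in the bottom fraction. CLDN3 in the top fractions held within a narrow range, while its bottom fractions split between animals 7 and 8 and animals 9 and 10. CLDN10 split the same animals, with 202 and 202 units in the bottom fractions of animals 7 and 8 and 5.96 and 9.06 in those of animals 9 and 10. Its top fractions had 47.1, 102, 13.1 and 159.5 units in animals 7 to 10. The mean of CLDN10 was lower in the top (80.5, against 104.7 in the bottom) although the log2 change was 0.55 ± 0.97 (adjusted p = 0.801), so that its direction depends on the scale. CLDN4, CLDN7 and CLDN8 had log2 changes of 0.32, 0.49 and -0.54, with adjusted p-values of 0.614 or more.

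Each fraction was also set against CV LE, where tissue and array set cannot be told apart. Of 9 claudin probe sets 6 were called for the top (2 higher, 4 lower) beside 44.5% of all 27751 tested (25.1% higher and 19.3% lower), and 6 for the bottom (1 higher, 5 lower) beside 42.0% (23.1% higher and 19.0% lower). CLDN5 exceeded CV LE by at least 21.6-fold in the top fractions (adjusted p = 3.65e-10) and by at least 20.5-fold in the bottom fractions (adjusted p = 6.61e-10). CLDN3 was called as higher for the top (log2 change 1.56 ± 0.45, adjusted p = 0.00726), with 0.69 ± 0.45 in the bottom (adjusted p = 0.223), and the difference between the fractions was not called. CLDN1, CLDN7, CLDN10 and CLDN23 were lower in both fractions, with CLDN10 29.8-fold lower in the top and 27.8-fold lower in the bottom. CLDN4 was lower in the bottom (log2 change -1.10 ± 0.41, adjusted p = 0.0345) and not called in the top (-0.78 ± 0.41, adjusted p = 0.126). The call of CLDN7 in the top was lost without any 1 of animals 1, 3, 4, 5, 7 and 10 (highest adjusted p 0.163). In the bottom, CLDN1 was lost without animal 3, 5 or 7 (highest 0.0758) and CLDN4 without animal 1, 4, 7 or 9 (highest 0.0939). In the bottom fraction the summed endothelial markers were high, 712 to 1122 against 250.3 to 488 in CV LE, and fibroblast markers reached 3737 to 7614, against 312 to 1745. In the top fraction these sums were 408 to 685 and 603 to 689. Between the fractions none of 3 endothelial genes tested was called, beside 3.14% of all probe sets tested. The geometric mean of CLDN5 was 552 in the top and 522.5 in the bottom. The part of endothelial cells in these levels was not tested.

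Ordered by geometric mean, CLDN5 was highest in the top fraction, FG taste buds, the bottom fraction and CV taste buds (552, 550.2, 522.5 and 521.7 units), all within the spread of their neighbours, and then in FG LE and CV LE (24.5 and 21.1). CLDN1 was higher in LE than in taste buds, with 653 in FG LE and 360.1 in CV LE, between which no difference was called. The fractions followed with 97.8 (bottom) and 56.9 (top), also uncalled. Then came CV and FG taste buds with 35.8 and 26.2, likewise uncalled. CLDN10 had 1973 units in CV LE and between 8.51 and 56.3 in all other groups. CLDN23 had 3387 in CV LE, 2338 in FG LE, 2053 in CV taste buds, 1175 in the top fraction, 783 in FG taste buds and 682 in the bottom fraction.

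Claudins work with other tight junction proteins, and 40 listed partners were read in the same fits. Of the 28 found on the array all passed the filter. In CV taste buds 5 were higher and 13 lower, and in FG taste buds 6 higher and 11 lower, with medians of -1.22 and -0.71 on the log2 scale. Over all probe sets tested 17.3% were higher and 18.0% lower in CV buds (median -0.08), and 21.1% higher and 20.2% lower in FG buds (median 0.05). Of these, 13 were called at both sites in the same direction, 5 higher and 8 lower. The higher ones were TACSTD1 (EPCAM, the adhesion molecule that binds CLDN7), the adhesion receptor CXADR, the scaffolds TJP3 and MPDZ, and the RhoA exchange factor ARHGEF2. All but TJP3 are named from the study's table, so that their direction is not independent of it. CXADR, TJP3, OCLN and TJP1 were named after their values were seen, being the receptor and scaffolds that bind the junction strands. TACSTD1 had a mean of 2959 in CV taste buds and 73.8 in CV LE (log2 change 5.44 ± 0.94, adjusted p = 0.000559), and 4467 in FG taste buds and 160.6 in FG LE (6.38 ± 0.77, adjusted p = 2.49e-05).

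Among the 8 lower at both sites were occludin (OCLN), a strand protein like the claudins, and TJP1, the scaffold that anchors claudins to actin. TJP1 had a mean of 1827 in CV taste buds and 4372 in CV LE (log2 change -1.26 ± 0.25, adjusted p = 0.00133), and of 1710.0 in FG taste buds and 3970.0 in FG LE (-1.20 ± 0.20, adjusted p = 0.00041). The angiomotin-like scaffold AMOTL1 changed by -4.18 ± 0.61 in CV and -1.74 ± 0.50 in FG taste buds, and the adhesion protein BVES by -5.44 ± 0.79 and -3.77 ± 0.64. PRKCI, a polarity kinase, was lower in CV taste buds (log2 change -3.62 ± 0.91, adjusted p = 0.00714), while at the FG site its change was -0.45 ± 0.74 (adjusted p = 0.649), and the difference between the sites was not called (adjusted p = 0.219). TJP1 and TJP3, 2 scaffolds that bind the same end of claudins, thus moved in opposite directions. No partner was called between CV and FG taste buds or between the LE sites, and AMOTL1 alone was called between the fractions, lower in the top (log2 change -1.67, adjusted p = 0.0382).

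**Figure D4:**
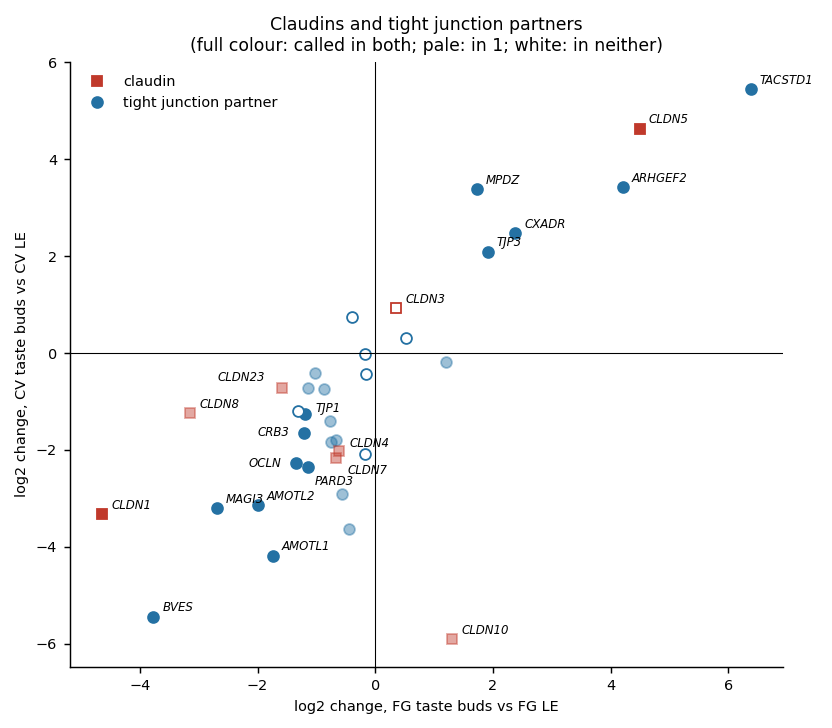
Log2 change from limma in FG taste buds over FG LE (x axis) and in CV taste buds over CV LE (y axis) for 8 claudins (squares) and 28 tight junction partners (circles). Fill shows whether a gene was called at both sites, 1 site or neither; CLDN5 sits with TACSTD1 and ARHGEF2 at the upper right, CLDN1 among the partners at the lower left with BVES, and CLDN10 alone at the lower right (1.31, -5.90).

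Regulators and modifiers of claudins were read the same way. Of 12 that passed the filter none was higher in taste buds, while 5 were lower at the CV site and 6 at the FG site, beside 18.0% and 20.2% of all probe sets lower and 35.3% and 41.2% called in either direction. In the fractions against CV LE, where tissue and array set cannot be told apart, 13 regulators passed the filter. In the top fractions 2 were higher and 5 lower, beside 25.1% and 19.3% of all probe sets tested. In the bottom fractions 1 was higher and 3 lower, beside 23.1% and 19.0%. The 5 called at both bud sites were EPHA2, a receptor kinase that phosphorylates CLDN4, the ephrin EFNB1, and the transcription factors GRHL1, GRHL3 and KLF4, which act in epidermal differentiation. GRHL1 had a mean of 96.6 in CV taste buds and 1594 in CV LE (log2 change -4.46 ± 0.80, adjusted p = 0.000731), and of 113 in FG taste buds and 1475 in FG LE (-4.31 ± 0.65, adjusted p = 0.000188). The keratinocyte differentiation list moved with these genes: its summed intensity was 7065 to 10630 in CV taste buds, against 94150 to 108000 in CV LE. Its part in the lower claudins was not tested.

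Of 17 further claudin probe sets, 8 stayed below 25 units in every sample and 5 reached 25 in at least 4 of the 28. CLDN15, a cation pore of the intestine, was higher in CV taste buds (range 26.1 to 382, against 6.19 to 34.2 in CV LE, log2 change 2.73 ± 0.93, adjusted p = 0.0354). It was also higher in FG taste buds (10.9 to 179, against 6.38 to 13.9 in FG LE, log2 change 2.05 ± 0.76, adjusted p = 0.0448). A second CLDN15 probe set did not follow, with medians of 17.5 in CV taste buds and 23.9 in CV LE. CLDN9 fell in FG taste buds, with a mean of 61.6 against 109.1 in FG LE (log2 change -0.80 ± 0.23, adjusted p = 0.0126). That probe set is of a kind that can bind several transcripts, and the other CLDN9 probe sets disagreed. One had the same direction, with medians of 36.6 in FG taste buds and 91.5 in FG LE, and the other did not, with 52.4 in FG taste buds and 45.4 in FG LE.

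For each claudin the genes were sought whose log2 intensity over the 28 samples was most like it, by Pearson's r. Samples of a group share tissue and animals are repeated, so these are descriptions. CLDN5 came nearest to TGFB2 (r = 0.985), a growth factor, the opioid receptor OPRD1 (0.979) and GNB3 (0.977), the G protein subunit of type II taste cells, all named by the study's own table. TGFB2 had medians of 3414 in CV taste buds and 8.6 in CV LE. CLDN1 came nearest to MALL (0.931), GBP6 (0.925) and S100A9 (0.915), a calcium-binding protein of squamous epithelium with medians of 348 in CV taste buds and 17550 in CV LE. CLDN10 came nearest to SPP1, or osteopontin (0.836), with a median of 474.5 in CV LE and of 72.4 or less elsewhere. CLDN23 came nearest to TMEM45A (0.858) and the kallikrein protease KLK12 (0.857), CLDN4 to SERTAD1 (0.842), CLDN7 to SHB (0.845), CLDN8 to LOC709417 (0.815) and CLDN3 to ATP2A3 (0.755). Among the claudins themselves CLDN4 and CLDN7 were the most alike (0.81) and CLDN1 and CLDN5 the most opposed (-0.84).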

How the data were processed

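The authors processed 28 Affymetrix Rhesus Macaque Genome arrays with GC-RMA in GeneSpring GX, quantile normalized over all samples, and deposited linear intensities for 52024 probe sets; the sources used here give no software versions. Arrays have no read depth, and their number limits the precision. Probe sets were named by the study's table (1997) or the array annotation (23781), while 356 carried several symbols and 25890 had none here. The leading probe set of a gene is that of the study's table or the brightest. The claudins and gene lists were chosen with earlier results of these data known. No reference genome was used, so that neither coordinates nor sequences are given.

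The intensities were log2 transformed and fitted with limma 3.58.1 in R 4.3.3 for probe sets at 25 units or more in at least 4 samples of the fit, with p-values adjusted by Benjamini-Hochberg and calls at 0.05. The first array set was fitted in 4 groups with the animal as a block (11 residual degrees of freedom), the fractions alone with the animal as a block (3 degrees of freedom), and the fractions against CV LE over all 28 samples, with animals as random effects (estimated correlation 0.039). Folds compare geometric means with values under 25 raised to 25, and are given as lower bounds ("at least") where this raising touched the dimmer group and arithmetic means give no smaller ratio. Taste buds against LE in the first set, and top against bottom fractions, were tested on simulated data without animal effects. The fit over all 28 samples was not. The pairing by animal comes from the labels: deviations from group means correlated at 0.07 for CV taste buds and CV LE of the same animal and at -0.02 for different animals, and at 0.05 and -0.01 at the FG site, 0.09 and -0.02 between taste bud types, 0.08 and -0.02 between LE sites and 0.12 and -0.04 between fractions. All samples were used, and the rule for named genes was all claudin probe sets, up to 6 members of a list with the largest called change, and the 3 genes most like each claudin called in any comparison. The alternatives were no animal term, LE as 1 group, no filter, values under 25 raised to 25, arrays centred on their medians, a trend in the variance, the methods' test and leaving out each animal (for the fractions against CV LE, added after seeing the data).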

Additional observations from a re-analysis of the deposited data

Results flagged for a closer look

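Some single samples lay apart from the rest of their group by the spacing of their log2 values, in 47 groups looked at, of which chance marks about 1 in 20. Among them are 3 in CV LE: CLDN1 of animal 1 (135.7 units, the next 446.8), CLDN4 of animal 3 (516.7, the next 780.9) and CLDN5 of animal 3 (12.0, the next 24.7). In FG LE, CLDN23 of animal 6 was the lowest at 1363, with the next at 2352, and in the top fractions CLDN8 of animal 9 was the highest at 153.9, with the next at 34.4.

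The change of CLDN10 in taste buds against the adjacent LE differed between the sites. The CV effect minus the FG effect was -7.21 on the log2 scale (adjusted p = 0.00507 in limma), or -5.80 (adjusted p = 0.000623) with values under 25 raised to 25. On the values as deposited it was not called without animal 3 or without animal 5. Between CV and FG taste buds themselves no difference in CLDN10 was called (log2 change 0.93 ± 0.76, adjusted p = 0.724). In the LE, CLDN10 had 1437 to 2411 units in CV LE and 5.74 to 13.0 in FG LE.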

How the results depend on the processing

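The counts of claudin probe sets called stayed within 1.5 times in most settings. The exceptions were the methods' t-test, which called 3 in CV and 3 in FG taste buds at the study's threshold, 1 and 3 after Benjamini-Hochberg and 0 between the LE sites; CV against FG taste buds, with 1 call with no replicate block and 1 with an intensity trend; and the CV effect minus the FG effect, with 0 to 1 calls when each animal was left out, 0 without animal 3 or 5. With no replicate block no other count moved by over 1.5 times. Single genes that were called kept direction and call in 116 of 118 values under other settings and in 148 of 165 with 1 animal left out.

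Changes that turned sign were all uncalled. With LE as 1 group CLDN10 had -1.65 in FG taste buds, with no replicate block the second CLDN1 probe set had -0.47 in CV against FG taste buds, and with values raised to 25 CLDN10 had -0.10 between the fractions; the cause was not tested. With each animal left out in turn, CV against FG taste buds ran from -0.26 (without animal 3; -0.09 without 5) to 0.23 for that CLDN1 probe set, from -0.51 to 0.24 for CLDN3, from -0.24 to 0.04 for CLDN5 and from -0.05 to 1.4 for CLDN10. Between the LE sites CLDN5 ran from -0.42 to 0.05 and CLDN8 from -1.62 to 0.58. The CV minus FG effect ran from -0.02 to 1.12 for CLDN3 and from -0.11 (without animal 2; -0.10 without 3) to 0.40 for CLDN5. Between the fractions CLDN4 ran from -0.10 to 0.65, CLDN5 from -0.51 to 0.31 and CLDN7 from -0.06 to 0.85, each lowest without animal 9, CLDN8 from -0.80 to 0.18 and CLDN10 from -0.65 to 0.35, both turning without animal 10 (without animal 7 or 8 CLDN10 did not pass the filter). In the bottom fraction against CV LE, where animals were left out after seeing the data, CLDN8 ran from -1.65 to 0.28, with 0.28, 0.15 and 0.02 without animals 3, 4 and 8. Values near 25 units limit the dim claudins CLDN3, CLDN8 and CLDN10.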

Other observations

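The fractions of CV taste buds can be set beside whole CV taste buds only across array sets and animals, which cannot be told apart from the cutting of the buds. CLDN5 had a geometric mean of 537 over the 8 fractions and 521.7 in whole CV taste buds, a ratio of 1.03. CLDN1 and CLDN4 were brighter in the fractions (ratios 2.09 and 2.1), CLDN3, CLDN7, CLDN8 and CLDN10 had ratios between 1.15 and 1.54, and CLDN23 was dimmer (895 in the fractions and 2053 in whole CV taste buds, a ratio of 0.436).

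Probe sets of the same claudin followed each other only in part over the 28 samples, with Pearson's r of 0.63 for CLDN1, 0.37 for CLDN4 and 0.24 for CLDN3, the second probe set being dim in each. In the cynomolgus annotation of RefSeq, CLDN3 and CLDN4 lie on the same chromosome with 1 protein-coding gene between them, and their log2 intensities correlated at -0.01. CLDN8 lies next to CLDN17.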
